A study of Mus musculus with 8 samples.

Results

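Of the 48831 genes in the files, 10 were followed in mouse vomeronasal tissue: H2-Aa, H2-Ab1, H2-Eb1, H2-DMa, H2-DMb1, Cd74, Ciita, Flt3, Itgax and Cd68. They were chosen by name as MHC class II genes, antigen loading genes and genes of dendritic cells and macrophages, and all 10 were found and were among the 20601 genes that passed the filter on low counts. The vomeronasal organ is the pheromone-sensing organ of the mouse nose, and the series studied its receptor genes. Polyadenylated RNA of the whole tissue was sequenced in 8 libraries from C57BL/6J mice of both sexes at 8 weeks, with no transgene or treatment named. Each sex had 2 libraries described as non-flushed, every one a pool of tissue from 2 mice, and 2 libraries described as flushed, every one from 1 mouse. The protocol text common to all libraries mentions flushing with heparin, which conflicts with the pool descriptions, and the descriptions were followed. The libraries are called male pools 1 and 2, female pools 1 and 2, flushed females 2 and 3, and flushed males 1 and 3. The replicates were separate mice or pools. Flushed state, number of mice and sequencing run, which the file headers place in separate dated folders, changed together and cannot be told apart, so "preparation" below stands for all of them.

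MHC class II molecules are pairs of an alpha and a beta chain that hold peptides from engulfed proteins at the cell surface, where CD4+ T cells read them. The invariant chain Cd74 guides new class II pairs to the endosome, and the H2-DM pair there exchanges a fragment of Cd74 for a peptide. Ciita is the coactivator that switches the whole set on, constitutively in dendritic cells and B cells and after interferon gamma in macrophages and other cells. C57BL/6 mice carry the b haplotype, in which the I-E alpha chain is not made, so that the beta chain H2-Eb1 has no partner of its own.

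Depth was 18763557 to 22096792 counts per pool and 22101913 to 24965088 per flushed library. Values are CPM, counts divided by the scaled library size, and RPKM where genes are compared with each other, since RPKM also divides by exon length. Omp, a marker of mature vomeronasal sensory neurons, was at 341 to 484 CPM in the 8 libraries. Trpc2, the channel of these neurons, was listed at 0, and 100% of its exon bases lay in other genes on the same strand, and the authors' counting left out reads from such positions. Blood and marrow genes moved with preparation. All 9 erythroid genes tested were lower in the flushed libraries, with summed levels of 1676 to 2092 CPM in the pools and 128 to 640 CPM in the flushed libraries (8 lower without female pool 1). Over all genes, 22.9% were lower at an edgeR adjusted p under 0.05. The flushed range was split by sex, with the globin gene Hbb-bs at 41.1 and 37.8 CPM in flushed females and 202 and 196 CPM in flushed males. Female pool 1 stood apart from female pool 2 in several leukocyte genes, with Ptprc (CD45, on all white blood cells) at 67.1 against 44.0 CPM, the T cell gene Cd3g at 5.31 against 0.869 CPM and the antibody-joining gene Jchain at 31.8 against 1.99 CPM. For the fit to the counts as deposited, values without that library are given beside each gene and each list below whose calls it changed.

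Per length, Cd74 was the most abundant of the 10 transcripts, at 154 ± 20.98 RPKM (SD, n = 8 libraries). H2-Eb1 followed at 116 ± 14.1 RPKM, H2-Ab1 at 83.8 ± 8.90 RPKM and H2-Aa at 73.1 ± 16.5 RPKM. These 4 formed a group, in which each neighbouring pair had overlapping ranges, although Cd74 exceeded H2-Eb1 and H2-Eb1 exceeded H2-Ab1 within 8 of 8 libraries. H2-DMb1 was at 15.1 ± 1.39 RPKM, below the lowest value of H2-Aa and above the highest of Cd68. Cd68 at 7.56 ± 1.21 RPKM and H2-DMa at 6.37 ± 0.596 RPKM overlapped, as did Ciita at 2.82 ± 0.249 RPKM and Itgax at 2.68 ± 0.453 RPKM. Flt3 was lowest at 0.705 ± 0.182 RPKM, with counts of 49.0 to 129 reads per library, so that counting error weighs more on Flt3 than on H2-Aa with its 1737 to 4421 reads. In bulk tissue, fewer cells of a type and less RNA per cell cannot be told apart.

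**Figure D1:**
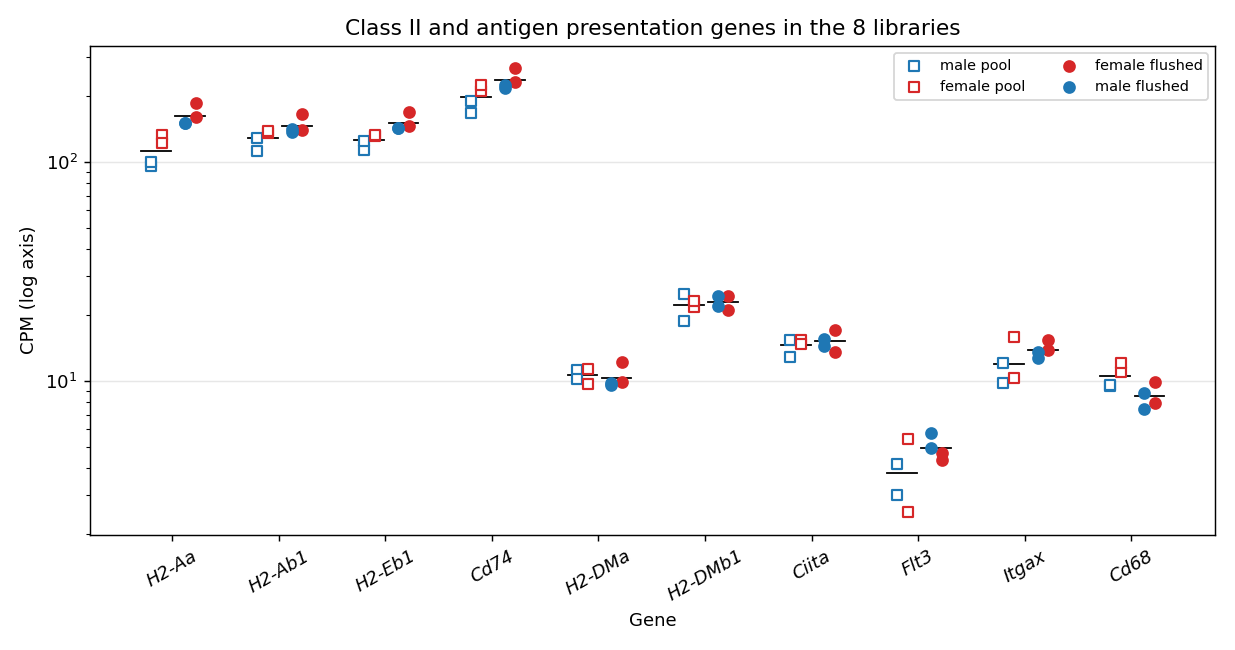
CPM of the 10 genes in each library on a log axis. Open squares are non-flushed pools, filled circles are flushed single mice, red is female, blue is male, and each bar is the mean of 4 libraries. H2-Aa and H2-Eb1 are the class II chains whose flushed libraries all lie above all pools, and in the pools the male squares of H2-Aa, H2-Ab1, H2-Eb1, Cd74 and Cd68 all lie below the female squares. How many of all genes separate in these ways was not counted.

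The preparation comparison asked which of the genes differed between flushed and non-flushed tissue. Of the 10 genes, 3 were higher in flushed tissue (H2-Aa, H2-Eb1 and Cd74) and 1 was lower (Cd68), at an adjusted p under 0.05 from edgeR's quasi-likelihood test. Over all genes, 45.5% were called, 22.6% as higher and 22.9% as lower, so a count of 4 in 10 is no more than the background. With library totals as the scaling, 6070 genes were called higher and 2862 lower, and of the 10 genes 4 higher (H2-Ab1 added) and none lower, since Cd68 was then not called (edgeR adjusted p = 0.16). The median log2 difference of the 10 genes was 0.19, against -0.02 over all genes tested. The count was 6 without female pool 1, and 3 when male pool 1, female pool 2, flushed female 2 or flushed male 3 was left out.

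All 3 class II chain genes lie close together on chromosome 17 of GRCm38. H2-Aa encodes the alpha chain of I-A and lies on the minus strand at chr17:34282744-34287827. Its level was 95.2 and 99.7 CPM in the male pools, 133 and 121 CPM in the female pools, 186 and 161 CPM in the flushed females, and 150 and 151 CPM in the flushed males. Every flushed library was above every pool. H2-Aa rose by 0.54 on the log2 scale (SE 0.07, 1.45-fold, edgeR adjusted p = 0.00021, n = 4 against 4), and it stayed called in 8 of 8 fits that left out 1 library. It was also the 1 gene of the 10 called within each sex alone, by 0.45 in females (SE 0.09, edgeR adjusted p = 0.0091) and 0.62 in males (SE 0.09, edgeR adjusted p = 0.0030), where 26.9% and 24.7% of all genes were called.

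H2-Ab1 encodes the beta chain that pairs with H2-Aa, and lies on the plus strand at chr17:34263209-34269418. It was at 112 and 129 CPM in the male pools, 136 and 138 CPM in the female pools, 165 and 140 CPM in the flushed females, and 141 and 136 CPM in the flushed males. The ranges of pools and flushed libraries overlapped. The difference was 0.18 (SE 0.07, edgeR adjusted p = 0.058) and did not pass the threshold; it passed in 2 of 8 fits that left out 1 library (lowest edgeR adjusted p = 0.030), without male pool 2 or without flushed female 3.

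H2-Eb1, the beta chain of I-E, lies on the plus strand at chr17:34305877-34316199. Its level was 113 and 124 CPM in the male pools, 131 and 132 CPM in the female pools, 169 and 146 CPM in the flushed females, and 143 and 143 CPM in the flushed males. All 4 flushed libraries lay above all 4 pools, and the log2 difference was 0.26 (SE 0.06, edgeR adjusted p = 0.0060), called in 8 of 8 fits that left out 1 library. H2-Ea-ps, the gene of the I-E alpha chain, had a count of 0 in all 8 libraries.

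Cd74, the invariant chain, lies on chromosome 18 (chr18:60803848-60812646, plus strand). It was at 168 and 190 CPM in the male pools, 211 and 224 CPM in the female pools, 268 and 232 CPM in the flushed females, and 217 and 224 CPM in the flushed males. Female pool 2 reached the range of the flushed males, and female pool 1 lay below every flushed library. The log2 difference was 0.25 (SE 0.07, 1.19-fold, edgeR adjusted p = 0.014), and without flushed female 2 it was 0.21 and no longer called (edgeR adjusted p = 0.063).

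The peptide exchange genes showed no call. H2-DMa was at 9.65 to 11.3 CPM in the pools and 9.54 to 12.2 CPM in the flushed libraries, with a log2 difference of -0.03 (SE 0.10, edgeR adjusted p = 0.81). H2-DMb1 was at 18.7 to 24.9 CPM and 21.1 to 24.4 CPM, with a difference of 0.05 (SE 0.10, edgeR adjusted p = 0.67). Of the 100-base stretches of H2-DMb1 transcripts, 11.3% also occur in its neighbour H2-DMb2, and the counts of both genes summed gave 0.07 (SE 0.08, edgeR adjusted p = 0.50). Ciita was at 12.8 to 15.3 CPM in the pools and 13.5 to 17.1 CPM in the flushed libraries, a difference of 0.06 (SE 0.10, edgeR adjusted p = 0.64). For each of these genes the ranges overlapped.

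Of the genes that mark the cells, Cd68, a lysosomal protein of macrophages, was at 9.46 and 9.59 CPM in the male pools, 11.01 and 12.01 CPM in the female pools, 9.84 and 7.87 CPM in the flushed females, and 8.80 and 7.42 CPM in the flushed males. Flushed female 2 lay inside the range of the pools. Cd68 fell by 0.31 on the log2 scale (SE 0.10, 1.24-fold, edgeR adjusted p = 0.035). This call held in 3 of 8 fits that left out 1 library and was lost without male pool 1, male pool 2, female pool 2, flushed female 3 or flushed male 3 (edgeR adjusted p of up to 0.089), and also with DESeq2 (adjusted p = 0.066).

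Flt3, the receptor through which dendritic cell precursors are sustained, was at 3.01 and 4.18 CPM in the male pools, 5.40 and 2.504 CPM in the female pools, 4.33 and 4.66 CPM in the flushed females, and 4.94 and 5.79 CPM in the flushed males. Female pool 1 lay within the flushed range and the other 3 pools below it. The difference was 0.37 (SE 0.22, edgeR adjusted p = 0.20), and 0.66 without female pool 1 (edgeR adjusted p = 0.011). Itgax, the integrin CD11c of dendritic cells, was at 12 and 9.79 CPM in the male pools, 15.8 and 10.3 CPM in the female pools, 15.3 and 13.8 CPM in the flushed females, and 12.7 and 13.5 CPM in the flushed males. Female pool 1 was the highest of all libraries, and the other 3 pools lay below every flushed library. Its difference was 0.21 (SE 0.13, edgeR adjusted p = 0.23), and 0.35 without female pool 1 (edgeR adjusted p = 0.029). Both calls were thus present only with that pool left out, among the fits that left out 1 library.

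The preparation difference depended on GC content over all genes. Among 5 equal groups of genes ordered by the GC content of their transcript, the lowest (28.6% to 43.3%) had a median log2 difference of 0.52 and the highest (55.3% to 76.3%) of -0.36. The 10 genes had GC contents of 50.7% (Flt3) to 57.3% (H2-Ab1), where the median of other genes was below 0. For the 500 genes nearest to H2-Ab1 in GC content the median was -0.32, and H2-Ab1 lay 0.50 above it. Cd74 lay 0.56 above its 500 nearest genes, H2-Aa 0.65, Flt3 0.46, H2-Eb1 0.41, Itgax 0.35, Ciita 0.34, H2-DMb1 0.27 and H2-DMa 0.25, and Cd68 lay at -0.11.

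**Figure D2:**
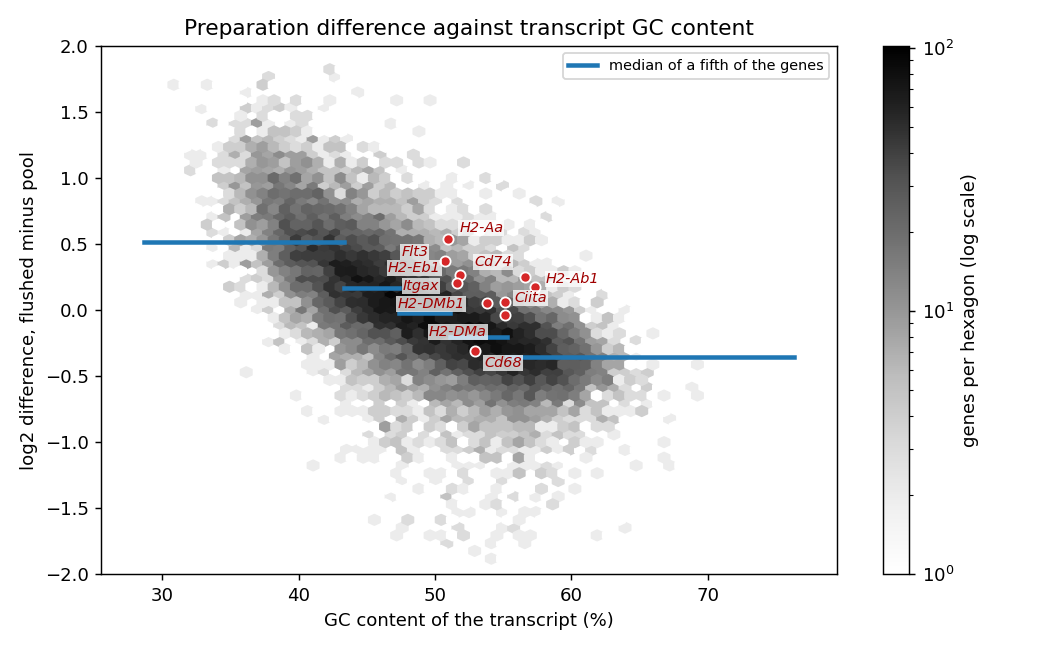
Log2 difference between flushed libraries and pools against the GC content of the transcript in percent, for all tested genes as grey hexagons (shade: genes per hexagon, log scale; genes beyond 2 on the vertical axis not drawn). Blue lines are medians of 5 equal groups of genes ordered by GC content, falling from 0.52 to -0.36, and red points are the 10 genes, of which 9 lie above the blue line at their GC content and Cd68 below it.

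A fit was therefore added, after the data had been seen, in which each library's trend on GC content was removed. It called 22.3% of all genes, 11.2% as higher and 11.1% as lower, and 5 of the 10 genes, all as higher: H2-Aa, H2-Ab1, H2-Eb1, Cd74 and Ciita. The median log2 difference of the 10 genes was 0.36, against 0.00 over all genes. H2-Aa rose by 0.63 (SE 0.06, edgeR adjusted p = 0.00047) and Cd74 by 0.54 (SE 0.06, edgeR adjusted p = 0.00075). H2-Ab1 rose by 0.48 (SE 0.06, edgeR adjusted p = 0.0014) and H2-Eb1 by 0.39 (SE 0.06, edgeR adjusted p = 0.0021).

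In this fit H2-Aa, H2-Ab1, H2-Eb1 and Cd74 were each called in 8 of 8 fits that left out 1 library, and within each sex alone, where 4.14% of all genes were called in females and 5.69% in males. The Ciita difference of 0.30 (SE 0.09, edgeR adjusted p = 0.041) held in 1 of 8 fits that left out 1 library, the one without flushed female 3 (edgeR adjusted p of up to 0.13 in the others). The Cd68 difference was -0.14 (SE 0.10, edgeR adjusted p = 0.35). Whether the GC trend arose in library preparation or in the tissue was not tested.

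**Figure D3:**
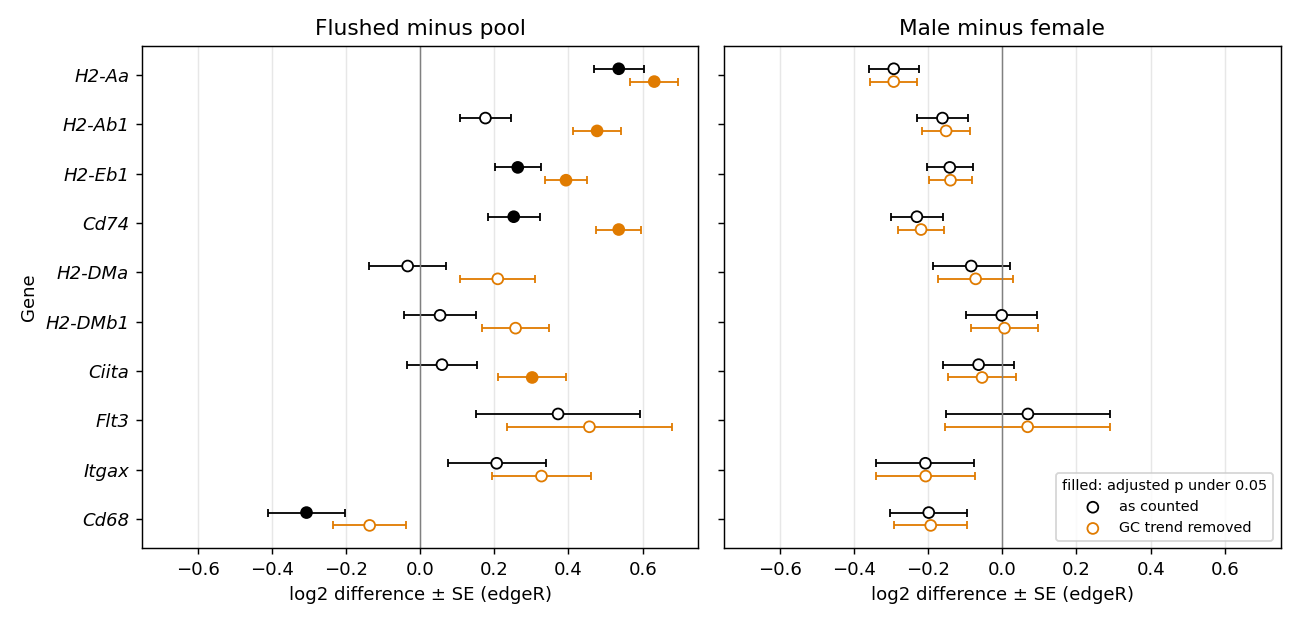
Log2 differences of the 10 genes with their standard errors from edgeR, for preparation (left) and sex (right). Black points are from the counts as deposited, orange points from the fit with the GC trend removed, and filled points have an adjusted p under 0.05. On the left 9 genes move to the right when the trend is removed and Cd68 moves towards 0, while on the right no point is filled.

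The balance between chains of the same molecule also differed in the counts. The ratio of H2-Aa to H2-Ab1, per length, was 0.759 ± 0.073 in the pools and 0.971 ± 0.030 in the flushed libraries (SD, n = 4 each), with no overlap. The pair was chosen from 6 pairs after their values were seen, so no test is given. The log2 ratios of H2-Aa to H2-Eb1 and to Cd74 were also higher in the flushed libraries, by 0.27 and 0.28, without overlap. That of H2-Ab1 to H2-Eb1 was lower by 0.09, also without overlap. Those of H2-Ab1 and H2-Eb1 to Cd74 overlapped. The log2 difference of H2-Aa exceeded that of H2-Ab1 by 0.36, and by 0.15 with the GC trend removed, H2-Aa having 51.0% GC and H2-Ab1 57.3%. The summed CPM of the 3 chains was 34.9 ± 1.99 times that of Cd68 in the pools and 54.2 ± 3.89 times in the flushed libraries, without overlap. Relative to Ptprc the same sum was 7.18 ± 1.26 and 5.92 ± 0.431, and relative to Itgax 31.6 ± 6.54 and 33.1 ± 1.22, both with overlapping ranges. Relative to Csf1r it was 3.90 ± 0.273 and 5.68 ± 0.465, and relative to Ciita 25.2 ± 1.59 and 30.3 ± 2.11, both without overlap. Its ratio to the summed macrophage markers did not overlap either. Ratios to the macrophage gene Adgre1 and to the summed genes common to leukocytes overlapped. These ratios to other genes were not corrected for the GC trend.

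The sex comparison asked whether males and females differed. None of the 10 genes was called (edgeR, adjusted p under 0.05), where 24 of all genes, 0.116%, were. An unadjusted edgeR p under 0.05 was found for 1640 of the 20601 genes tested and for 4 of the 10. The 4 were H2-Aa, Cd74, H2-Ab1 and H2-Eb1, with values lower in males. They were measured in the same 8 libraries and are not independent results. H2-Aa had a male minus female difference of -0.29 (SE 0.07, edgeR adjusted p = 0.31), and within each preparation both male libraries were below both female libraries. The difference was -0.23 for Cd74 (SE 0.07, edgeR adjusted p = 0.45), -0.16 for H2-Ab1 (SE 0.07, edgeR adjusted p = 0.61) and -0.14 for H2-Eb1 (SE 0.06, edgeR adjusted p = 0.62). Cd74 and H2-Eb1 also had both males below both females within each preparation, whereas flushed males and females overlapped for H2-Ab1. The share of all genes with such a separation was not counted, so these orders are a description only. DESeq2 called H2-Aa alone of the 10 (-0.29, adjusted p = 0.012), among 124 genes or 0.602%, and limma-voom called none of them among 23 genes or 0.112%.

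The interaction fit asked whether the preparation difference depended on sex. None of the 10 genes was called, where 10 of all genes, 0.0485%, were called by edgeR. Of the genes called, 5 were erythroid, Hbb-bs among them. None of the 10 had an unadjusted edgeR p under 0.05, against 670 of the 20601 genes tested. DESeq2 called 28 genes, and none of the 10. The interaction estimate for H2-Aa was 0.18 (SE 0.13), and it was not called.

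Class II promoters share a module of short elements known as the X and Y boxes, to which the RFX and NF-Y complexes bind and on which Ciita acts. The following stretches are shown because they hold that module. They lie in front of the RefSeq starts of 3 of the 10 genes and of the related class II genes H2-Eb2, H2-Oa and H2-Ob. They are read on the gene's strand, 5′ to 3′, from RefSeq on GRCm38.p6. Capitals mark the letters GNAAC (a core of the X box, N for any base) and, 10 to 30 bases on, TGATTGG (the Y box), letters chosen after the sequences were seen.
H2-Aa, chr17:34287855-34287916, minus strand: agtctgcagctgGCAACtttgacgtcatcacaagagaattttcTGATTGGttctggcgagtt
H2-Eb1, chr17:34305764-34305824, plus strand: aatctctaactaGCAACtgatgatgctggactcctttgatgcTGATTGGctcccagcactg
H2-DMb1, chr17:34153085-34153146, plus strand: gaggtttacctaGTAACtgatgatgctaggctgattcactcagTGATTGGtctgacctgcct
H2-Eb2, chr17:34325531-34325591, plus strand: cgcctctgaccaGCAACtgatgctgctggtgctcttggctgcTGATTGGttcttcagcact
H2-Oa, chr17:34092291-34092352, plus strand: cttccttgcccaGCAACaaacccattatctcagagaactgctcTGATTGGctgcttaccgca
H2-Ob, chr17:34238806-34238864, plus strand: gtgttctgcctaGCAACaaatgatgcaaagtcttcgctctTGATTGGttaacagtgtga
The gap between the capitals was 26 bases in H2-Aa, H2-DMb1 and H2-Oa, 25 bases in H2-Eb1 and H2-Eb2 and 23 bases in H2-Ob. The Y letters lay 50 bases before the RefSeq start of H2-Aa, 61 before that of H2-Eb1 and 63 before that of H2-DMb1. The RefSeq start of H2-DMb1 lay 119 bases from the gene's start in the files, and that of H2-Oa 39 bases. By the starts in the files, the H2-DMb1 stretch lies inside the gene and the H2-Oa stretch ends inside it. Of 32851 promoter windows of the mouse, 2568 (7.82%) held the Y letters on either strand. Both sets of letters, in this order and distance on either strand, were held by 191 (0.581%). The stretches above are on the gene's strand only, so these shares cover more than that strand. The windows of Flt3, Itgax, Cd68 and H2-DMa did not hold the pair, those of H2-DMa starting 9664 or more bases from the gene's start in the files. No window was matched for H2-Ab1, Cd74 and Ciita, so whether they hold the pair was not examined. The window of the related gene H2-DMb2 held the Y letters without the pair. Its RefSeq start lay 1942 bases from the gene's start in the files. Of the 6 genes with stretches shown, H2-Aa, H2-Eb1 and H2-Eb2 rose with preparation, by 0.54, 0.26 and 1.00. The differences of H2-DMb1, H2-Oa and H2-Ob, 0.05, 0.21 and -0.14, were not called. Differences between the genes were not tested.

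The counts for related genes that follow stand against the 45.5% of all genes called for preparation, 22.6% as higher and 22.9% as lower. Counts with the GC trend removed stand against 22.3%, 11.2% as higher and 11.1% as lower. Counts without female pool 1 stand against 9047 of 21283 genes, 4342 higher and 4705 lower. Of the other class II genes, 1 of 4 tested rose. H2-Eb2, a second I-E beta gene next to H2-Eb1, was at 0.703 and 0.861 CPM in the male pools, 1.11 and 1.74 CPM in the female pools, 1.64 and 2.39 CPM in the flushed females, and 2.7 and 1.98 CPM in the flushed males, so that 1 pool reached the flushed range. It rose by 1.00 (SE 0.28, edgeR adjusted p = 0.015), but with the GC trend removed the difference of 0.73 was not called (edgeR adjusted p = 0.091). H2-DMb2, H2-Oa and H2-Ob (the H2-O pair restrains H2-DM) had differences of 0.13, 0.21 and -0.14, none called. The factors that bind the class II promoter had 1 higher and 2 lower of 7, with 1 and 3 without female pool 1 and 0 and 1 with the GC trend removed. Creb1 rose by 0.47 (SE 0.06, edgeR adjusted p = 0.00024), a rise absent with the GC trend removed (-0.04, edgeR adjusted p = 0.62). Rfx5 fell by 0.20 (edgeR adjusted p = 0.045) and Nfyc by 0.20 (edgeR adjusted p = 0.032), each called in 2 of 8 fits that left out 1 library and neither with the GC trend removed.

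Endosomal processing genes moved in both directions, with 3 higher and 5 lower of 11, and 2 in each direction with the GC trend removed. Ctss, the cathepsin that trims the invariant chain in dendritic cells and B cells, was at 62.4 to 79.2 CPM in the pools and 78.8 to 119 CPM in the flushed libraries. It rose by 0.46 (SE 0.10, edgeR adjusted p = 0.0039), and by 0.34 with the GC trend removed (edgeR adjusted p = 0.028). The latter call held in 4 of 8 fits that left out 1 library (edgeR adjusted p of up to 0.076). Lamp2, a lysosomal membrane protein, rose by 0.96 (SE 0.06, edgeR adjusted p = 1.4e-05), and March1, a ubiquitin ligase that removes class II from the surface, by 0.71 (SE 0.11, edgeR adjusted p = 0.00079). With the GC trend removed Lamp2 rose by 0.39 (edgeR adjusted p = 0.0012), and March1 was not called (0.26, edgeR adjusted p = 0.12). The proteases Lgmn and Ctsz fell by 0.39 (edgeR adjusted p = 0.00061) and 0.45 (edgeR adjusted p = 0.00068), of which the Lgmn call also held with the trend removed (-0.26, edgeR adjusted p = 0.0096).

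Class I presentation genes were divided, 6 higher and 4 lower of 14 (4 and 2 with the GC trend removed), and their median difference was 0.05. The class I heavy chain H2-K1 was at 279 to 331 CPM in the pools and 356 to 428 CPM in the flushed libraries. H2-D1, the other, was at 229 to 292 CPM and 314 to 380 CPM, and for both genes the groups did not overlap. H2-K1 and H2-D1 rose by 0.33 (SE 0.06, edgeR adjusted p = 0.0014) and 0.38 (SE 0.07, edgeR adjusted p = 0.0016), and 0.60 and 0.64 with the GC trend removed. Their light chain B2m rose by 0.46 (SE 0.09, edgeR adjusted p = 0.0016), a call lost with the trend removed (0.06, edgeR adjusted p = 0.67). Nlrc5, the class I counterpart of Ciita, was named after its values were seen. It rose by 0.71 (SE 0.13, edgeR adjusted p = 0.0015), with all 4 flushed libraries (30.0 to 45.9 CPM) above all pools (18.1 to 27.5 CPM), and by 0.86 with the trend removed (edgeR adjusted p = 0.0022). Calr, the chaperone calreticulin, fell by 0.47 (SE 0.05, edgeR adjusted p = 0.00011). Tap2, a peptide transporter subunit encoded among the class II genes, fell by 0.51 (SE 0.07, edgeR adjusted p = 0.00029), whereas its partner Tap1 in the same region was not called (0.08, edgeR adjusted p = 0.51). With the GC trend removed the Tap2 difference was -0.22 (edgeR adjusted p = 0.043), called in 2 of 8 fits that left out 1 library, and Tap1 rose by 0.37 (edgeR adjusted p = 0.021). Among the class I genes, B2m (Pearson r = 0.98), H2-K1 (0.97) and H2-D1 (0.96) were among the 10 genes whose CPM ran closest to the standardised mean of H2-Aa, H2-Ab1 and H2-Eb1, ranked among 15489 genes whose counts averaged at least 50 over the 8 libraries. The channel gene Kcnh8 ranked above them (r = 0.98), and the others were Tm6sf1, Mthfd2l, Gm44037, Mbd4, Tmem209 and Vmn1r84. Cd74 had r = 0.97, Ciita 0.66, Itgax 0.58, H2-DMb1 0.51, Flt3 0.44, H2-DMa 0.14 and Cd68 -0.19. These libraries share the split by preparation, so the values are a description of it.

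Interferon gamma response genes had 8 higher and 3 lower of 15, with a median of 0.33. The counts were 7 and 2 without female pool 1, and 3 and 1 with the GC trend removed. Cxcl9, a chemokine induced by interferon gamma, was at 0.256 to 1.06 CPM in the pools and 2.02 to 12.9 CPM in the flushed libraries, a rise of 2.96 (SE 0.60, edgeR adjusted p = 0.0027) whose highest value was flushed female 2. The receptor subunit Ifngr2 fell by 0.35 (SE 0.07, edgeR adjusted p = 0.0017). Of the costimulatory genes 2 of 7 rose and none fell, with 3 higher when female pool 1 was left out and 1 when the GC trend was removed. Cd86, which supplies the second signal to T cells, was at 2.76 to 4.56 CPM in the pools and 6.30 to 9.42 CPM in the flushed libraries. It rose by 0.98 (SE 0.13, edgeR adjusted p = 0.00026), and by 0.71 with the GC trend removed (edgeR adjusted p = 0.0043). The inhibitory ligand Cd274 rose by 0.42 (SE 0.09, edgeR adjusted p = 0.0045), and by a value not called, 0.24, with the trend removed (edgeR adjusted p = 0.073).

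**Figure D4:**
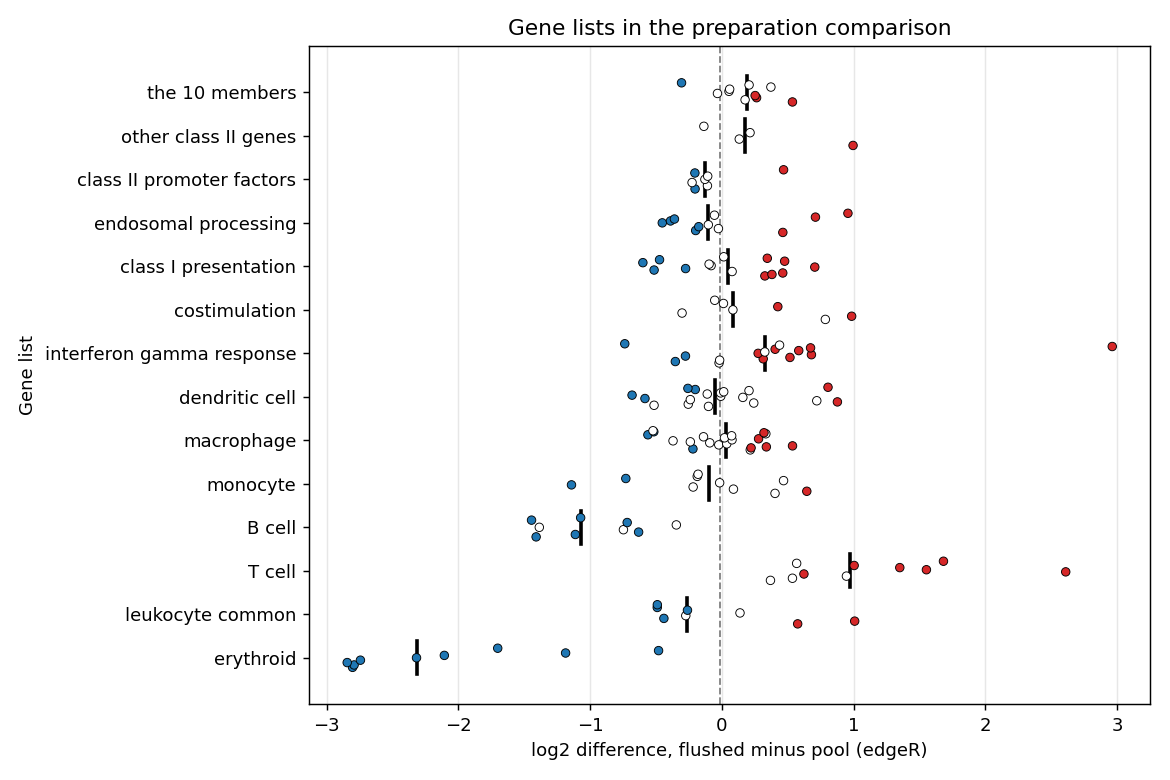
Log2 difference between flushed libraries and pools (edgeR) of each tested gene of 14 sets, one row a set. Red points were called higher, blue points lower and white points not at an adjusted p under 0.05, the thick bar is the median of the set and the dashed line the median of all genes, -0.02. Erythroid and B cell genes lie to the left, T cell genes to the right, and the 10 genes of this set have a median of 0.19.

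Markers of the cells that could carry class II moved in different directions, and their part in the class II differences was not tested. Dendritic cell markers had 2 higher and 4 lower of 18 (3 and 3 without female pool 1, 1 and 2 with the GC trend removed), with summed levels of 252 to 280 CPM in the pools and 229 to 238 CPM in the flushed libraries. Abundant genes weigh most in these sums, and bulk counts do not show which cells the reads came from. The median log2 difference of the 18 genes was -0.06, against -0.02 over all genes tested. Sirpa, the most abundant, was at 76.75 to 85.4 CPM in the pools and 64.1 to 69.3 CPM in the flushed libraries. With the GC trend removed, Sirpa was called in 0 of 8 fits that left out 1 library. Itgae, an integrin of one dendritic subset and of resident T cells, rose by 0.81 (SE 0.22, edgeR adjusted p = 0.014), and Xcr1, a chemokine receptor of cross-presenting dendritic cells, by 0.88 (SE 0.31, edgeR adjusted p = 0.042), a call that held in 2 of 8 fits that left out 1 library and not with the GC trend removed (0.53, edgeR adjusted p = 0.23). Fscn1, of migrating dendritic cells, and Clec10a fell by 0.68 (edgeR adjusted p = 0.00050) and 0.58 (edgeR adjusted p = 0.0076). With the GC trend removed Fscn1 fell by 0.31 (edgeR adjusted p = 0.046) and Clec10a by 0.54 (edgeR adjusted p = 0.023), called in 1 and 4 of 8 fits that left out 1 library. Macrophage markers had 5 higher and 3 lower of 20 (6 and 3 without female pool 1, 4 and 1 with the GC trend removed), with sums of 548 to 635 CPM and 563 to 632 CPM. Maf, a macrophage transcription factor, rose by 0.32 (edgeR adjusted p = 0.00083), and the adaptor Tyrobp fell by 0.56 (edgeR adjusted p = 0.00068). With the GC trend removed Tyrobp fell by 0.33 (edgeR adjusted p = 0.027), called in 3 of 8 fits that left out 1 library. Csf1r, the receptor that maintains macrophages, fell by 0.22 (SE 0.05, edgeR adjusted p = 0.0043), a difference of 0.00 with the GC trend removed (edgeR adjusted p = 0.98).

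B cell markers, another class II lineage, had 6 lower and none higher of 9, with sums of 15.7 to 22.1 CPM in the pools and 6.60 to 14.1 CPM in the flushed libraries, the opposite direction to H2-Aa. The count was 3 lower without female pool 1 and 1 with the GC trend removed. T cell markers had 6 higher and none lower of 10, with sums of 7.46 to 19.6 CPM and 19.9 to 25.2 CPM, the highest pool being female pool 1. Without that pool 9 were higher, and with the GC trend removed 5. Cd8a, the coreceptor of cytotoxic T cells, rose by 2.61 (SE 0.31, edgeR adjusted p = 0.00015). Monocyte markers had 1 higher and 2 lower of 10, with 1 and 1 without female pool 1 and 0 and 1 with the GC trend removed. Neutrophil markers had none higher and 10 lower of 13, but 6 lower without female pool 1 and 5 with the GC trend removed. Genes common to leukocytes had 2 higher and 4 lower of 8, with 2 and 2 without female pool 1 and 1 and 2 with the GC trend removed. Ptprc rose by 0.58 (SE 0.12, edgeR adjusted p = 0.0035) but was not called with the GC trend removed (0.27, edgeR adjusted p = 0.10). With the trend removed, 1 of 8 fits that left out 1 library called Ptprc (edgeR adjusted p = 0.010). No gene of these lists was called between the sexes.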

How the data were processed

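The deposited values are expected counts per gene, since a read with several alignments was split among them, per the file headers. Per those headers, exons were counted with reverse strandedness, and reads overlapping several genes were left out. The submitters' processing notes name STAR 2.7.1a and featureCounts 1.6.5. Reads were 100 bases long, per the labels. The authors applied no normalization. Fractional counts made up 10.16% to 11.79% of genes per library.

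Identifiers were named from GENCODE M21 (48336 of 48831 genes), and those without a name held 0.0801% of counts. Counts were rounded and fitted with edgeR 4.0.16 (R 4.3.3): TMM scaling, filterByExpr on the 4 groups, the quasi-likelihood F test with additive terms for sex and preparation, a further fit with their interaction, and Benjamini-Hochberg adjustment over all 20601 genes tested, with a threshold of 0.05. SE is the log2 difference over the square root of F. CPM used unrounded counts. Likeness used log2(CPM + 0.5). GC content was that of the longest coding transcript (20476 of 20601 genes), and its trend in each library, a lowess curve with span 0.3, entered as an offset. The fits were tested on simulated counts. Alternatives were DESeq2 1.42.0, limma-voom (limma 3.58.1), other scalings, no filter, 1 library left out and, added after the data were seen, the GC correction.

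The 10 genes, the gene lists and the rule for named genes were chosen with earlier results of these data known. The rule takes the 10 genes, the 3 with the smallest preparation p and the 1 with the smallest sex p of each list, and the 10 most alike. A smaller set was picked from these after their values were seen. Ctss, March1, Tap1, Itgae, Csf1r, Adgre1, Nlrc5, H2-Ea-ps, Omp, Trpc2 and Cd3g lie outside the rule and were named after their values were seen. Duplicate reads cannot be told from separate molecules.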

Additional observations from a re-analysis of the deposited data

Results flagged for a closer look

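Flushed female 2 stood apart from the other 3 flushed libraries in 3 of the 10 genes. H2-Ab1 was at 165.1 CPM there against 136.3 CPM in the lowest flushed library, and the gap to its nearest neighbour was 0.851 of the range. H2-Eb1 was at 169.2 CPM against a lowest value of 142.8 CPM, with a gap of 0.890 of the range. H2-DMa was at 12.2 CPM against a lowest value of 9.54 CPM, with a gap of 0.875 of the range. Each gap is above Dixon's critical value for 4 samples. Chance sets off this rule in about 1 of 20 groups, and 20 groups were tested, whose genes share the same libraries.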

How the results depend on the processing

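The calls of H2-Aa and H2-Eb1 in the preparation comparison kept their direction and side of the threshold under DESeq2, limma-voom, both other scalings, no filter and with any 1 library left out; within 1 sex H2-Eb1 was not called. Scaling by library totals moved the median of all genes from -0.02 to 0.10 for preparation and from 0.00 to -0.12 for sex.

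The preparation fit called 9377 genes, 7734 to 9047 with 1 library left out, 5533 within females, 5086 within males (1 of the 10 genes in each) and 4596 with the GC trend removed. In that last fit the count was 2731 to 4018 with 1 library left out, 852 within females and 1172 within males. The sex fit called 24 genes, 8 to 25 with 1 library left out, 7 within the pools, and 784 without the filter and 124 by DESeq2, each with 1 of the 10 genes. The interaction fit called 10 genes, 4 to 18 with 1 library left out, 263 without the filter and 28 by DESeq2.

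Values near 0 changed sign. For preparation these were H2-DMa (0.076 within females, 0.079 by library totals, 0.21 with the GC trend removed, -0.13 to 0.037 with 1 library left out), H2-DMb1 (-0.0099 to 0.15 with 1 library left out), Ciita (-0.012 to 0.12 likewise), H2-DMb2 (-0.0016 within females) and, with the GC trend removed, Creb1 (-0.038, and 0.0022 within females), Csf1r (0.0022, -0.0028 within females, -0.024 to 0.032 with 1 library left out) and B2m (-0.048 within females, -0.0076 to 0.14 with 1 library left out). For sex these were H2-DMa (0.030 within the pools, -0.15 to 0.0036 with 1 library left out), H2-DMb1 (0.031 within the flushed libraries, 0.00085 with RLE scaling, 0.00099 by DESeq2, 0.0060 with the GC trend removed, -0.081 to 0.079 with 1 library left out), Ciita (-0.13 to 0.0027 likewise) and Flt3 (-0.15 within the pools, -0.049 by library totals, -0.067 to 0.35 with 1 library left out). The causes were not tested. No paired analysis was possible because the pools carry no replicate number in the labels and the flushed groups share 1 number.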
